A study of Mus musculus with 14 samples.

Results

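The amino acid transporters of the kidney tubule described here are 10 genes, Slc6a18, Slc6a19, Slc7a5, Slc7a7, Slc7a8, Slc7a9, Slc7a13, Slc3a1, Slc3a2 and Slc1a1. They were taken by gene symbol from the 24411 genes counted in every library, and 10 of 10 were among the 14300 genes that passed the filter on low counts. The libraries were bulk RNA-sequencing of whole mouse kidneys from male C57/B6 mice aged 8 weeks, collected at day 0 (4 libraries), day 1 (5 libraries) and day 3 (5 libraries) after renal ischemia/reperfusion injury (IRI). The study used these days to follow gene expression in acute kidney injury. The mice of all 3 days shared strain, sex and age, no genetic change was labelled in any group, and whether the day 0 mice had a sham operation is not given in the sources used here. The labels do not say that each library came from a separate mouse, so p-values measure the spread between these libraries, which may be partly technical. In bulk RNA, fewer cells of a type and less RNA per cell cannot be told apart, and this holds for every decrease described below.

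Filtered amino acids are recovered almost completely by the proximal tubule, whose early parts are called S1 and S2 and whose last part is called S3. Apical carriers take amino acids up from the tubular fluid: B0AT1 (Slc6a19) and B0AT3 (Slc6a18) carry neutral amino acids and need the partner protein collectrin at the membrane, rBAT (Slc3a1) is the heavy chain that pairs with b0,+AT (Slc7a9) to carry cystine and dibasic amino acids and with AGT1 (Slc7a13) to carry cystine and acidic amino acids, and EAAC1 (Slc1a1) carries glutamate and aspartate. On the basolateral side, 4F2hc (Slc3a2) is the heavy chain of the exchangers LAT2 (Slc7a8) for neutral amino acids and y+LAT1 (Slc7a7) for dibasic amino acids, and of LAT1 (Slc7a5), an exchanger of large neutral amino acids best known from growing and activated cells.

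Promoter sequences of 7 members, with 12 start sites in all, were found in RefSeq (GRCm38.p6), and Slc7a5, Slc7a13 and Slc6a18 had no entry. Windows of 300 bases, from 250 before to 50 after each start, were searched on both strands for CAAAGNCCA, the core that hepatocyte nuclear factor 4 (HNF4) binds and that 1.98% of 32851 mouse promoters of this length hold, and for TGATGNAA, the composite element of ATF4 and C/EBP held by 3.97%. No stretch shown holds both motifs. Stretches of 170 bases, from 150 before to 20 after a start, are given 5′ to 3′ on the gene's strand, to set the heavy chain Slc3a1 and its light chain Slc7a9 beside Slc7a7 and the other heavy chain Slc3a2. Capitals mark motif matches.

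Slc3a1 (chr17:85028197-85028366, plus strand): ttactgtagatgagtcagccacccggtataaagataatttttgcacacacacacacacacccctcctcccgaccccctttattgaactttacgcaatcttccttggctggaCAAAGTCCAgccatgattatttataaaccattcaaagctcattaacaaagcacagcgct
Slc7a9 (chr7:35448942-35449111, plus strand): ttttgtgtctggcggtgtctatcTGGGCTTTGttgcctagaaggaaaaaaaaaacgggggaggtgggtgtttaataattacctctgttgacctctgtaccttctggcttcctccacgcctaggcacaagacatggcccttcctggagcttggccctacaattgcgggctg
Slc7a7, downstream start (chr14:54409453-54409622, minus strand): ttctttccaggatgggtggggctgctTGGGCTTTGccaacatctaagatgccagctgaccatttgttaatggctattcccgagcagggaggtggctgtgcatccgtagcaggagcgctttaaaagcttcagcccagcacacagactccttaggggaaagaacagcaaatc
Slc7a7, upstream start (chr14:54417925-54418094, minus strand): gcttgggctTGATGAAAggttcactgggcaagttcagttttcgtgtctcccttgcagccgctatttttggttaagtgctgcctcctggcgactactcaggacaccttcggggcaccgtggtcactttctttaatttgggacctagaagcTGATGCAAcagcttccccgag
Slc3a2 (chr19:8713878-8714047, minus strand): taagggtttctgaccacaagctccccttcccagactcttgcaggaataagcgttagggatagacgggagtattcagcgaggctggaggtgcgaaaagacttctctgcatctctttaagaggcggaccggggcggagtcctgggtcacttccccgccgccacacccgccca

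The Slc3a1 stretch held the HNF4 core on the gene's strand. In the Slc7a9 stretch and in the downstream Slc7a7 stretch the HNF4 core lay on the other strand (TGGGCTTTG). The upstream Slc7a7 stretch held the ATF4 and C/EBP element in 2 places, and the Slc3a2 stretch held no match. The windows of Slc6a19, Slc7a8 and Slc1a1 held neither motif. A match is only a description of the letters. Hnf4a, which encodes the factor that binds the first motif, averaged 926 ± 105 CPM (counts scaled to the size of the library, mean ± SD) over the 4 libraries of day 0, 455 ± 77.6 over the 5 of day 1 and 641 ± 185 over the 5 of day 3. It fell at day 1 (log2 fold change −1.02, SE 0.20, adjusted p = 0.00133), and at day 3 its log2 fold change was −0.53 (SE 0.20, adjusted p = 0.0518). What part Hnf4a has in the members' values was not tested.

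The members lie on 7 chromosomes of GRCm38, and each locus below spans the whole gene. Slc6a18 (ENSMUSG00000021612.15, chr13:73661752-73678023, minus strand) and Slc6a19 (ENSMUSG00000021565.16, chr13:73679745-73704865, minus strand) are neighbours with 1721 bases between them. Slc7a7 (ENSMUSG00000000958.10, chr14:54369442-54417780, minus strand) and Slc7a8 (ENSMUSG00000022180.7, chr14:54722209-54781946, minus strand) lie 304428 bases apart. The other loci are Slc7a9 (ENSMUSG00000030492.16, chr7:35448796-35466036, plus strand), Slc7a13 (ENSMUSG00000041052.8, chr4:19818725-19842218, plus strand), Slc3a1 (ENSMUSG00000024131.8, chr17:85028376-85064236, plus strand), Slc3a2 (ENSMUSG00000010095.13, chr19:8706882-8723369, minus strand), Slc1a1 (ENSMUSG00000024935.11, chr19:28835049-28913960, plus strand) and Slc7a5 (ENSMUSG00000040010.10, chr8:121881150-121907694, minus strand). Exons of Slc7a7 share 232 bases with Oxa1l, those of Slc3a1 share 601 bases with Prepl and those of Slc1a1 share 2631 bases with other genes, all on the opposite strand, and the counts used here keep the strands apart.

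Each library held 12485579 to 20476979 reads assigned to genes. The libraries carried file names with either a 1-digit or a 3-digit number, a difference whose meaning the labels do not give, and members differed with it within a day, so values are also given by this number format. All 4 day 0 libraries, day 1 replicates 3, 4 and 5 and day 3 replicates 4 and 5 had a 1-digit number, and day 1 replicates 1 and 2 and day 3 replicates 1, 2 and 3 had a 3-digit number. A difference between 3-digit libraries and day 0 cannot be told apart from the format itself. Of the day 3 libraries, replicate 2 lay nearest to day 0 on the first principal component of all tested genes (47.3% of the variance). It was at −24.7, against 1.54 to 82.4 in the other day 3 libraries and −87.3 to −78.3 at day 0. Markers of the proximal tubule, thick limb and collecting duct were measured in every group and none of them was at 0.

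Members changed in both directions after IRI. By edgeR's quasi-likelihood test with Benjamini-Hochberg adjustment, 2 of 10 rose and 3 fell at day 1 against day 0, where 23.3% of the 14300 tested genes were higher and 18.7% lower. At day 3, 1 rose and 4 fell, with 19.5% of tested genes higher and 13.8% lower. The day 1 counts of members are near these shares of all genes, and at day 3 more members fell than the share over all genes would give. The median log2 fold change of the 10 was −0.23 at day 1 and −0.89 at day 3, beside 0.01 and 0.05 over all tested genes. Both comparisons use the same day 0 libraries. The members' summed level was 3879 to 4462 CPM at day 0, 2345 to 3262 at day 1 and 1110 to 2786 at day 3, so that no injured library reached a day 0 library. Slc3a1, Slc7a13 and Slc6a18 had the largest day 0 means (1072, 1065 and 976 CPM) and weigh most in this sum.

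**Figure D1:**
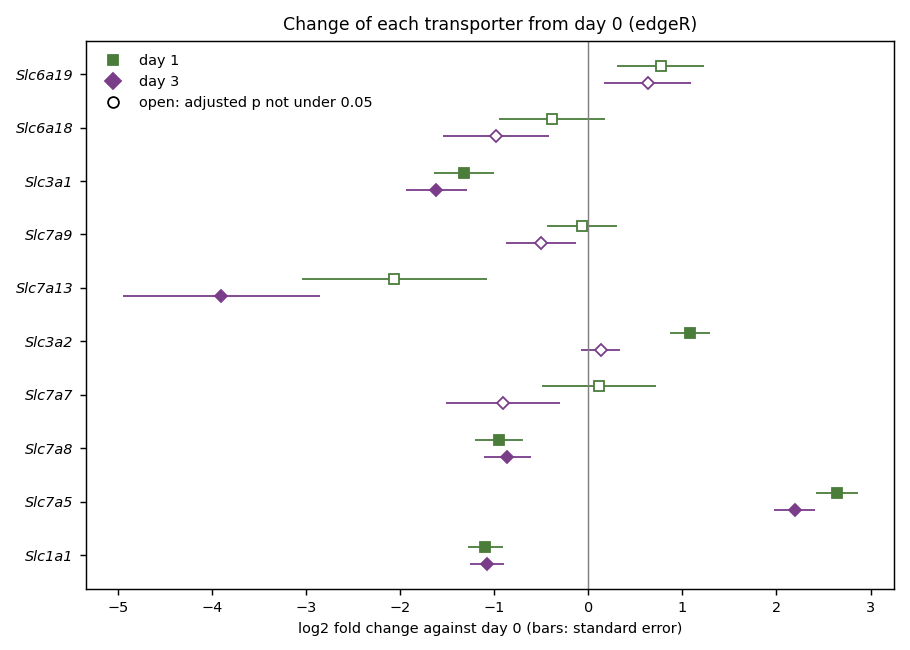
Log2 fold change (with its SE) of each of the 10 transporter genes at day 1 against day 0 and at day 3 against day 0, filled where the adjusted p was under 0.05. Slc7a5 lies farthest to the right at both days (2.64 and 2.20) and Slc7a13 farthest to the left (−2.06, not past the threshold, and −3.90).

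Per kilobase of exon, the scale used for comparing genes, the day 0 kidney held most of Slc7a13 (498 CPM per kb, SD 76.0) and Slc3a1 (472, SD 31.7), which did not differ beyond their spread. Slc6a18 followed at 221 (SD 21.4). A middle group of Slc7a7 (55.0), Slc7a9 (47.9), Slc3a2 (45.7), Slc1a1 (45.4) and Slc6a19 (36.4) lay close together, with neighbouring means closer than their SDs apart from the step between Slc7a7 and Slc7a9 and that between Slc1a1 and Slc6a19. Slc7a8 was lower, at 16.9 (SD 3.48), and Slc7a5 lowest, at 0.751 (SD 0.217). By day 3 Slc3a1 (154, SD 74.2) and Slc6a18 (112, SD 68.5) had the highest means, with overlapping spreads, and Slc7a13 (33.2, SD 46.0) lay among the middle group. Slc7a5 remained the lowest at day 1 (4.71, SD 0.658) and day 3 (3.45, SD 0.427).

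Among the apical carriers, Slc1a1 fell at both days to a like level. It had 365, 389, 369.9 and 376 CPM at day 0. At day 1 it had 139 and 172 CPM in the 3-digit libraries and 241, 147 and 178 in the 1-digit libraries, and at day 3 it had 165, 215 and 205 in the 3-digit and 183 and 119 in the 1-digit libraries. Every injured library lay below every day 0 library, with both formats mixed in rank. The gene fell 2.14-fold at day 1 (log2 fold change −1.10, SE 0.18, adjusted p = 0.000518) and 2.11-fold at day 3 (−1.08, SE 0.18, adjusted p = 0.000811), and days 1 and 3 differed by 0.02 (SE 0.17, adjusted p = 0.953).

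Slc3a1, the heavy chain whose loss in people causes cystinuria, was below day 0 in every injured library. Its day 0 values were 1062, 1099, 1149 and 978 CPM. It had 324 and 278 CPM in the 3-digit and 589.7, 509.8 and 448 in the 1-digit libraries of day 1, and 374, 596 and 382 in the 3-digit and 252 and 145 in the 1-digit libraries of day 3. The 3-digit libraries were the lower ones at day 1 and the higher ones at day 3, and no injured library reached day 0. The fall was 2.49-fold at day 1 (log2 fold change −1.32, SE 0.32, adjusted p = 0.0052) and 3.07-fold at day 3 (−1.62, SE 0.32, adjusted p = 0.00215).

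Of its 2 light chains, Slc7a9 did not pass the test at either day over all libraries. It had 141, 118, 129 and 125 CPM at day 0, 73.8 and 62.3 in the 3-digit and 182, 121 and 173 in the 1-digit libraries of day 1, and 67.4, 179 and 44.5 in the 3-digit and 80.0 and 80.7 in the 1-digit libraries of day 3. These groups overlapped with day 0 at both days, with 2 of the 3 1-digit libraries of day 1 above day 0 and 4 of 5 day 3 libraries below it. The log2 fold change was −0.07 at day 1 (SE 0.37, adjusted p = 0.898) and −0.51 at day 3 (SE 0.37, adjusted p = 0.303), and without day 3 replicate 2 the day 3 value was −0.91 (adjusted p = 0.0315).

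Slc7a13 had the widest range of any member as a ratio of highest to lowest, from 55 to 20446 reads in a library. It had 1015, 1203, 1186 and 857 CPM at day 0. The day 1 values were 48.3 and 19.9 CPM in the 3-digit and 523, 308 and 375 in the 1-digit libraries, and those of day 3 were 28.1, 241 and 70.9 in the 3-digit and 11.7 and 4.04 in the 1-digit libraries. All injured libraries lay below day 0, by a factor that ranged widely within each day. At day 3 the gene fell 15.0-fold (log2 fold change −3.90, SE 1.05, adjusted p = 0.0119). At day 1 the log2 fold change was −2.06 (SE 0.98, adjusted p = 0.103), past the threshold when only the libraries of days 0 and 1 were fitted (−2.04, adjusted p = 0.0455). With the number format as a term the day 3 value was −3.98 and missed the threshold (adjusted p = 0.131).

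Slc6a18 and Slc6a19, neighbours on chromosome 13 and both partners of collectrin, did not pass the test at either day over all libraries. Slc6a18 had 916, 1055, 1058 and 875 CPM at day 0. Its day 1 values were 1157 and 1605 CPM in the 3-digit and 386, 318 and 265 in the 1-digit libraries, and its day 3 values were 484, 765 and 825 in the 3-digit and 275 and 126.2 in the 1-digit libraries. The 3-digit libraries thus lay above day 0 at day 1 and below it at day 3, and the 1-digit libraries lay far below at both days. The pooled log2 fold changes were −0.39 (SE 0.56, adjusted p = 0.598) and −0.98 (SE 0.56, adjusted p = 0.191).

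Slc6a19 had 208, 158, 167 and 197 CPM at day 0. At day 1 it had 188 and 74.4 CPM in the 3-digit and 528, 359 and 407 in the 1-digit libraries, and at day 3 it had 258, 277 and 109 in the 3-digit and 487 and 283 in the 1-digit libraries. All 5 injured 1-digit libraries were above day 0, while the 3-digit libraries lay on both sides of it. The pooled log2 fold changes were 0.77 (SE 0.46, adjusted p = 0.190) at day 1 and 0.63 (SE 0.46, adjusted p = 0.302) at day 3, and without day 1 replicate 2, the lowest library, the day 1 value was 1.02 (adjusted p = 0.0358). With the number format as a term, both genes passed at both days in opposite directions: Slc6a18 fell (−1.53, adjusted p = 0.000235, and −2.37, adjusted p = 4.56e-05) and Slc6a19 rose (1.08, adjusted p = 0.0154, and 1.35, adjusted p = 0.0108).

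**Figure D2:**
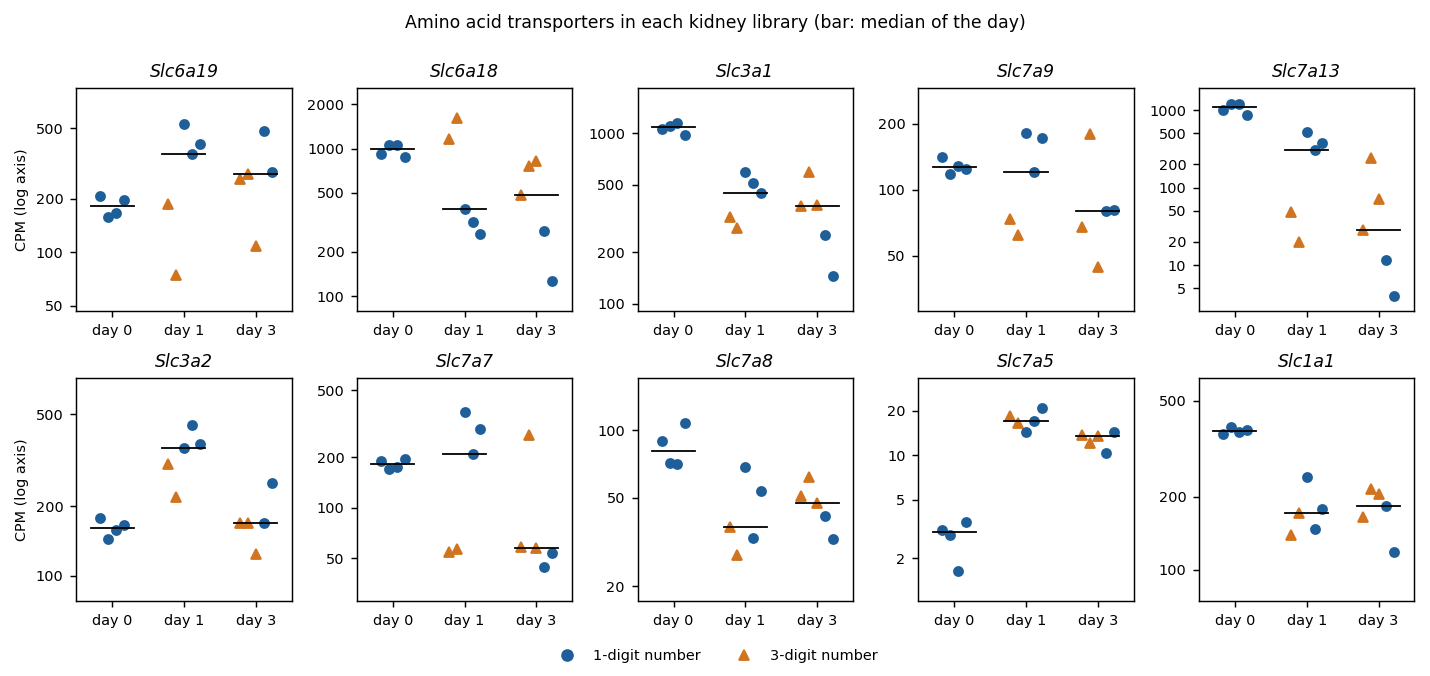
Level of each of the 10 transporters (CPM, log axis) in each library by day, with circles for 1-digit and triangles for 3-digit libraries and a bar at each day's median. Slc7a5 sits above its day 0 values in all 10 injured libraries, Slc1a1, Slc3a1 and Slc7a13 sit below theirs, and Slc6a18 splits by format.

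The basolateral heavy chain Slc3a2 rose early. It had 178, 145, 158 and 165 CPM at day 0, and 305 and 219 in the 3-digit and 358, 449.7 and 370.0 in the 1-digit libraries of day 1. At day 3 it had 169, 169.6 and 124 CPM in the 3-digit and 168 and 252 in the 1-digit libraries, so that day 1 lay wholly above day 0 and day 3 overlapped with it. The gene rose 2.11-fold at day 1 (log2 fold change 1.08, SE 0.21, adjusted p = 0.00158), and at day 3 its log2 fold change was 0.13 (SE 0.21, adjusted p = 0.648). Between day 1 and day 3 it fell (−0.95, SE 0.20, adjusted p = 0.00846), although the highest day 3 library lay above the lowest day 1 library. It was the only member called in that comparison, 0 higher and 1 lower of 10, beside 8.52% of tested genes higher and 7.39% lower, and the median over members was −0.44 beside 0.02 over all genes. Without day 3 replicate 2, Slc7a13 (−3.14, adjusted p = 0.0356) and Slc7a7 (−1.87, adjusted p = 0.0219) were also called. So were Slc6a18 with the number format as a term (−0.84, adjusted p = 0.0185) and Slc7a5 with DESeq2 (−0.47, adjusted p = 0.0341).

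Slc7a5, the light chain LAT1, rose most of the members at both days. Its levels were low, at 3.11, 2.88, 1.64 and 3.51 CPM at day 0, and a library held 26 to 366 of its reads. At day 1 it had 18.3 and 16.6 CPM in the 3-digit and 14.2, 17.1 and 20.9 in the 1-digit libraries, and at day 3 it had 13.7, 12.1 and 13.4 in the 3-digit and 10.4 and 14.3 in the 1-digit libraries. The lowest injured library was well above the highest day 0 library, and the formats were mixed. The gene rose 6.24-fold at day 1 (log2 fold change 2.64, SE 0.22, adjusted p = 3.88e-06) and 4.58-fold at day 3 (2.20, SE 0.22, adjusted p = 1.55e-05), and the difference between those days was −0.45 (SE 0.19, adjusted p = 0.115).

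Slc7a8, the light chain LAT2, went the other way. It had 89.5, 71.6, 70.5 and 107 CPM at day 0. It had 37.1 and 27.6 CPM in the 3-digit and 68.6, 33.0 and 53.7 in the 1-digit libraries of day 1, and 50.6, 61.5 and 47.4 in the 3-digit and 41.2 and 32.6 in the 1-digit libraries of day 3. The groups did not overlap at either day, but day 1 replicate 3 came close to the lowest day 0 library. It fell 1.93-fold at day 1 (log2 fold change −0.95, SE 0.25, adjusted p = 0.0088) and 1.82-fold at day 3 (−0.86, SE 0.25, adjusted p = 0.0185). The day 3 call was lost without day 0 replicate 4, the highest day 0 library (−0.73, adjusted p = 0.0622), and narrowly with the number format as a term (adjusted p = 0.0503).

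Slc7a7, the light chain y+LAT1, whose loss in people causes lysinuric protein intolerance, was split within days. It had 191, 169.7, 174 and 194 CPM at day 0, 54.4 and 56.8 in the 3-digit and 371, 208 and 295 in the 1-digit libraries of day 1, and 58.8, 269.8 and 57.3 in the 3-digit and 44.7 and 53.8 in the 1-digit libraries of day 3. Day 1 libraries fell on both sides of day 0 by format, and at day 3 the single library above day 0 was replicate 2. The log2 fold change was 0.11 at day 1 (SE 0.61, adjusted p = 0.894) and −0.91 at day 3 (SE 0.61, adjusted p = 0.256). Without day 3 replicate 2 the day 3 value was −1.76 and passed the threshold (adjusted p = 0.0129).

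Within a single number format the members could be compared with day 0 without the other format. In the 1-digit libraries, the format of day 0 itself, 3 of 10 rose and 5 fell at day 1 (28.9% of tested genes higher, 29.6% lower), and 2 rose and 6 fell at day 3 (28.6% higher, 25.1% lower). The median over members was −0.20 and −1.26, beside −0.05 and 0.05 over all genes. Slc6a18 fell 3.02-fold at day 1 (log2 fold change −1.59, SE 0.27, adjusted p = 0.00025) and 4.86-fold at day 3 (−2.28, SE 0.32, adjusted p = 0.000122), whereas Slc6a19 rose 2.37-fold (1.24, SE 0.34, adjusted p = 0.00645) and 2.11-fold (1.08, SE 0.37, adjusted p = 0.026). The neighbouring genes therefore moved in opposite directions in these libraries, though the Slc6a19 call at day 3 was lost without day 0 replicate 2, day 0 replicate 3 or day 3 replicate 4. Slc7a13 fell 2.65-fold at day 1 (−1.41, SE 0.57, adjusted p = 0.0485), a call lost without any 1 of the 1-digit libraries of day 0 or day 1, without day 3 replicate 3 and with RLE size factors, and 135-fold at day 3 (−7.07, SE 0.93, adjusted p = 7.02e-05). Slc7a7 was above day 0 in all 3 libraries at day 1 without passing (0.68, SE 0.42, adjusted p = 0.181) and fell 3.70-fold at day 3 (−1.89, SE 0.53, adjusted p = 0.00915), a call lost without either of the 2 libraries. Slc3a2 rose 2.44-fold at day 1 (1.28, SE 0.17, adjusted p = 4.87e-05) and had a log2 fold change of 0.38 at day 3 (SE 0.19, adjusted p = 0.112).

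In the 3-digit libraries against day 0, 2 of 10 were higher and 5 lower at day 1 (22.6% of tested genes higher, 19.0% lower) and 1 was higher and 4 were lower at day 3 (19.1% higher, 13.3% lower). The medians were −1.09 and −0.50, beside 0.02 and 0.02 over all genes. Slc7a13 was 31.3-fold lower at day 1 (log2 fold change −4.97, SE 0.82, adjusted p = 0.000498) and 9.40-fold lower at day 3 (−3.23, SE 0.62, adjusted p = 0.00181). Slc6a18 had values of 0.50 (SE 0.28, adjusted p = 0.173) and −0.50 (SE 0.26, adjusted p = 0.156) and did not pass. Slc7a5, by contrast, was called higher in both formats at both days, with log2 fold changes of 2.64 and 2.64 at day 1 and 2.14 (1-digit) and 2.23 (3-digit) at day 3.

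**Figure D3:**
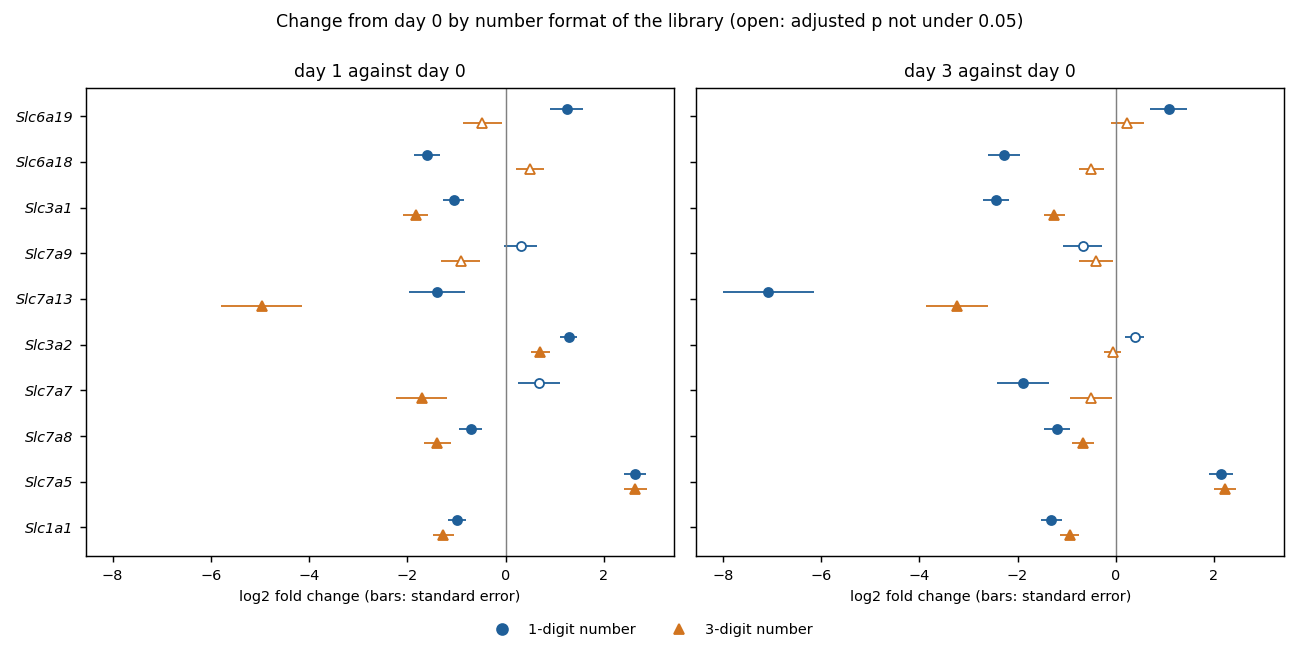
Log2 fold change against day 0 (with its SE) of each transporter in the 1-digit and in the 3-digit libraries, at day 1 on the left and day 3 on the right, filled where the adjusted p was under 0.05. At day 1 Slc6a18 is at −1.59 in the 1-digit and 0.50 in the 3-digit libraries, while the Slc7a5 points coincide at 2.64.

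Set directly against each other at day 1, the 3-digit libraries were higher than the 1-digit libraries for 1 member and lower for 6 (18.6% of tested genes higher, 16.4% lower), with a median of −0.73 over members and 0.03 over all genes. Slc6a18 was the higher one, by 4.27-fold (log2 difference 2.10, SE 0.30, adjusted p = 0.000472). Slc7a13 was 11.8-fold lower (−3.56, SE 0.77, adjusted p = 0.00411), Slc7a7 5.24-fold lower (−2.39, SE 0.56, adjusted p = 0.00603) and Slc6a19 3.29-fold lower (−1.72, SE 0.43, adjusted p = 0.00871). Slc7a9, Slc3a1 and Slc3a2 were lower by 1.22, 0.78 and 0.58 on the log2 scale (adjusted p = 0.0384, 0.029 and 0.0461), calls that were all lost with total counts in place of TMM. Slc7a5 had a log2 difference of 0.00 (SE 0.25, adjusted p = 0.992). The number of calls moved with single libraries, among members as over all genes: without day 1 replicate 2, which leaves a single 3-digit library, Slc6a18 alone was called (1 of 10) and 1997 genes in place of 5001, and without day 1 replicate 3, 4 members and 4416 genes were called.

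At day 3, 3 members were higher and 0 lower in the 3-digit libraries (10.3% of tested genes higher, 8.22% lower), with a median of 0.45 over members and 0.01 over all genes. Slc7a13 was 14.3-fold higher (log2 difference 3.84, SE 0.80, adjusted p = 0.0101), Slc6a18 3.44-fold higher (1.78, SE 0.33, adjusted p = 0.00604) and Slc3a1 2.27-fold higher (1.18, SE 0.26, adjusted p = 0.0111). The 1-digit group of day 3 held only 2 libraries. The calls above were lost by edgeR without replicate 5, a fit that leaves 1 library in that group and cannot say whether they hold. The difference between formats itself changed from day 1 to day 3 for 4 of 10 members (17.6% of tested genes), all upward, with a median of 1.04 beside −0.02. It changed by 7.40 for Slc7a13 (SE 1.11, adjusted p = 0.00127), by 3.77 for Slc7a7 (SE 0.77, adjusted p = 0.00593), by 1.96 for Slc3a1 (SE 0.36, adjusted p = 0.00348) and by 1.20 for Slc7a8 (SE 0.39, adjusted p = 0.0495). Of these calls, that of Slc7a8 was lost on leaving out any single library other than day 0 replicate 4 or day 1 replicate 4. For Slc6a18 the change was −0.31 (SE 0.43, adjusted p = 0.655), so that it was higher in the 3-digit libraries on both days.

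Markers of the proximal tubule moved with this split. Of 12 such markers, 0 rose and 4 fell at day 1, and 0 rose and 4 fell at day 3. Their summed level was 15081 to 16828 CPM at day 0, 9498 to 14669 in the 1-digit and 4087 to 4953 in the 3-digit libraries of day 1, and 3251 to 5141 in the 1-digit and 7717 to 14948 in the 3-digit libraries of day 3. The highest of these day 3 values belonged to replicate 2, the library with the highest Slc7a7, Slc7a9 and Slc7a13 of that day. Of the 12, 6 were lower in the 3-digit libraries at day 1, 5 were higher at day 3, and the format difference changed for 8, all upward. At day 1 Slc6a18 did not share this order, being higher in the 3-digit libraries, where the summed markers were lower. At day 3 both were higher in the 3-digit libraries.

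Markers of the S3 segment, where Slc7a13 is known to be expressed, fell. Of 6 such genes, 5 fell at day 1 and 6 at day 3, and 0 rose. Their summed level was 4933 to 5994 CPM at day 0, 2418 to 4515 (1-digit) and 1433 to 1953 (3-digit) at day 1, and 614 to 712 (1-digit) and 1109 to 2428 (3-digit) at day 3. Of 4 markers of S1 and S2, which lie within the proximal tubule list, 0 were called at either day by edgeR or by DESeq2 and 0 had an unadjusted p under 0.05, and their summed level was 3069 to 3541 CPM at day 0, 1438 to 3963 at day 1 and 1266 to 4420 at day 3. By format, however, 2 of these 4 were lower than day 0 in the 3-digit libraries of day 1 (median log2 fold change −1.76) and 2 in the 1-digit libraries of day 3 (−0.88), and at day 1 the 3-digit libraries had 3 of them below the others. Of 5 tubular injury markers 4 rose at day 1 and 4 at day 3, with Lcn2, Krt20 and Sox9 called at both days, Havcr1 only at day 1 (adjusted p = 0.155 at day 3) and Vcam1 only at day 3 (adjusted p = 0.0686 at day 1). Their sum went from 100 to 135 CPM at day 0 to 899 to 5579 at day 1 and 970 to 4560 at day 3. No marker of these lists was at 0 throughout a group. What part the proportion of tubule cells has in the members' values was not tested.

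Genes of other cell types were also measured beside Slc7a5 and Slc3a2, which many cells express. Of 7 leukocyte markers, 2 rose and 1 fell at day 1 and 3 rose and 1 fell at day 3, with a summed level of 119 to 189 CPM at day 0, 63.6 to 107 at day 1 and 112 to 405 at day 3. At day 1, Cd68 (log2 fold change 3.57) and Itgam (3.02) rose while Csf1r fell (−1.65), and the sum, of which Csf1r was the largest part at day 0, was below day 0 in all 5 libraries. In the 1-digit libraries 2 of the 7 rose and 4 fell at day 1, and in the 3-digit libraries of day 3 5 were higher and 1 lower. Of 6 proliferation genes, 0 were called at day 1 over all libraries by edgeR or by DESeq2, also at an unadjusted p under 0.05, and 5 rose at day 3 (17.8 to 68.5, 34.5 to 168 and 50.2 to 574 CPM). Of 4 fibroblast markers, 2 rose at day 1 and 3 at day 3 (74.2 to 84.1, 99.8 to 317 and 359.6 to 762 CPM), with 1 called higher in the 1-digit and 3 in the 3-digit libraries of day 1, and of 4 endothelial markers, 1 rose at day 1 and 0 at day 3 (171 to 228, 225 to 393 and 112 to 494 CPM). Thick limb and distal markers fell for 3 of 4 at day 1 and 4 of 4 at day 3, collecting duct markers for 1 of 5 and 3 of 5, and urothelium markers for 0 of 5 and 1 of 5. Over all libraries, the 0 counts of endothelial markers at day 3 and of urothelium markers at day 1 were the same with DESeq2 and at an unadjusted p under 0.05. By format these lists differed: 2 of the 6 proliferation genes were higher than day 0 in the 3-digit libraries of day 1, and at day 3 this held for 6 in the 3-digit and 2 in the 1-digit libraries. Of the 4 endothelial markers, 3 rose in the 1-digit libraries at day 1 and 4 at day 3, and 3 were lower in the 3-digit libraries than in the others at day 3. Of the 5 urothelium markers, 1 was higher than day 0 in the 3-digit libraries of day 1, and 2 were higher there than in the 1-digit libraries. The part of these cells in the members' values was not tested.

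Since heavy and light chains work as pairs, 9 ratios between members were compared in each library, which needs no scaling between libraries. Of 27 comparisons by an exact two-sided permutation test, with adjustment over all 27, 13 passed: 6 at day 1 against day 0 (4 higher, 2 lower), 6 at day 3 against day 0 (3 higher, 3 lower) and 1 between the injured days. The smallest p the design allows is 0.00794 with 4 against 5 libraries. It is no smaller with 5 against 5, where swapping the groups gives the same absolute difference. With only the 1-digit libraries no ratio could pass, since the smallest p of that design is 0.0286 at day 1 and 0.0667 at day 3 before adjustment over 27, so differences in those libraries are given below as values without a test. On leaving out a library, 0 passed without any 1 of the day 0 libraries or of day 1 replicates 1, 2, 4 and 5 (12 to 16 having an unadjusted p under 0.05), 6 passed without any 1 day 3 library and 16 without day 1 replicate 3. Leaving out a library raises the smallest p of the comparisons with day 0 that use it, to 0.0179 without a day 0 library. These counts therefore cannot show that a ratio rested on 1 library. All 13 kept their direction in every setting tried for the ratios.

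The gap between the 2 heavy chains narrowed. Slc3a2 reads per Slc3a1 read were 0.132 to 0.169 at day 0, 0.608 to 0.941 at day 1 and 0.285 to 1.74 at day 3, without overlap with day 0 and above 1 only in day 3 replicate 5. The ratio rose 5.33-fold at day 1 (log2 difference 2.41, adjusted exact permutation p = 0.0268) and 3.64-fold at day 3 (1.86, adjusted exact permutation p = 0.0390), where the 1-digit libraries alone gave 2.84. Among the light chains of Slc3a2, the ratio of Slc7a5 to Slc7a8 was 0.0237 to 0.0407 at day 0, 0.208 to 0.603 at day 1 and 0.197 to 0.440 at day 3. It rose 12.8-fold at day 1 (3.68, adjusted exact permutation p = 0.0268) and 8.58-fold at day 3 (3.10, adjusted exact permutation p = 0.0268). Slc7a5 also rose relative to Slc3a2 itself, by 1.63 at day 1 and 2.13 at day 3 (log2; adjusted exact permutation p = 0.0268 for both), while Slc7a8 fell relative to it (−2.05 and −0.97, adjusted exact permutation p = 0.0268 and 0.0495). From day 1 to day 3 the Slc7a8 ratio rose by 1.08 (adjusted exact permutation p = 0.0495), although the groups overlapped (up to 0.191 at day 1, from 0.130 at day 3) and the difference in the 1-digit libraries was 0.49.

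Per kilobase, Slc7a5 made up a mean 1.03% of the 3 light chains of Slc3a2 at day 0 (0.662 to 1.17%), 9.66% at day 1 (2.97 to 17.2%) and 10.6% at day 3 (3.37 to 14.5%). Slc7a7 held 75.8%, 75.2% and 62.6% on average and Slc7a8 23.1%, 15.1% and 26.8%. The day 1 means pool formats that did not overlap. Slc7a7 held 84.5 to 86.4% in the 1-digit libraries, above the 72.4 to 78.3% of day 0, and 57.0 and 63.2% in the 3-digit libraries, below it. Slc7a5 held 2.97 to 6.24% in the former and 16.5 and 17.2% in the latter, and Slc7a8 8.91 to 10.6% against 20.3 and 25.8%. The day 3 means pool replicate 2 with libraries unlike it. Slc7a7 held 84.0% in replicate 2 and 55.0 to 61.0% in the other day 3 libraries. Slc7a8 held 12.7% there against 24.5 to 33.6%, and Slc7a5 3.37% against 11.4 to 14.5%. At the level of RNA, Slc7a7 was the main light chain of the 3 in every library. The ratio of Slc7a7 to Slc3a2 did not pass at day 1 (−1.34, adjusted exact permutation p = 0.100) or at day 3 (−1.40, adjusted exact permutation p = 0.107).

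For the light chains of Slc3a1, Slc7a9 reads per Slc3a1 read were 0.108 to 0.133 at day 0, 0.225 to 0.387 at day 1 and 0.116 to 0.558 at day 3. This ratio rose 2.26-fold at day 1 (log2 difference 1.18, adjusted exact permutation p = 0.0268), and at day 3 the difference was 1.10 (adjusted exact permutation p = 0.100). Slc7a13 reads per Slc3a1 read were 0.876 to 1.09 at day 0, 0.0719 to 0.887 at day 1 and 0.0282 to 0.405 at day 3, a 10.5-fold fall at day 3 (−3.39, adjusted exact permutation p = 0.0390) after a difference of −1.52 at day 1 (adjusted exact permutation p = 0.143). The ratio of Slc7a13 to Slc7a9 was 6.87 to 10.2 at day 0, 0.320 to 2.87 at day 1 and 0.0505 to 1.59 at day 3. It fell at day 1 (log2 difference −2.70, adjusted exact permutation p = 0.0268) and at day 3 (−4.49, adjusted exact permutation p = 0.0390), with no overlap with day 0. In the 1-digit libraries alone the differences were −1.72 and −6.58, and for Slc7a13/Slc3a1 at day 3 it was −4.77. Per kilobase Slc7a13 made up 89.6 to 92.7% of the pair at day 0, 73.0 to 78.2% in the 1-digit and 28.6 and 45.0% in the 3-digit libraries of day 1, and 5.89 and 15.5% in the 1-digit and 34.3 to 66.6% in the 3-digit libraries of day 3. It was thus lower at day 3 than at day 1 in the 1-digit libraries, but not in the 3-digit libraries, which overlapped. The ratio of Slc6a18 to Slc6a19 was 4.40 to 6.69 at day 0, and it was 6.15 and 21.6 in the 3-digit but 0.652 to 0.884 in the 1-digit libraries of day 1. At day 3 it was 1.87 to 7.59 in the 3-digit and 0.566 and 0.446 in the 1-digit libraries. Its pooled differences of −1.26 at day 1 and −1.76 at day 3 did not pass (adjusted exact permutation p = 0.298 and 0.150).

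**Figure D4:**
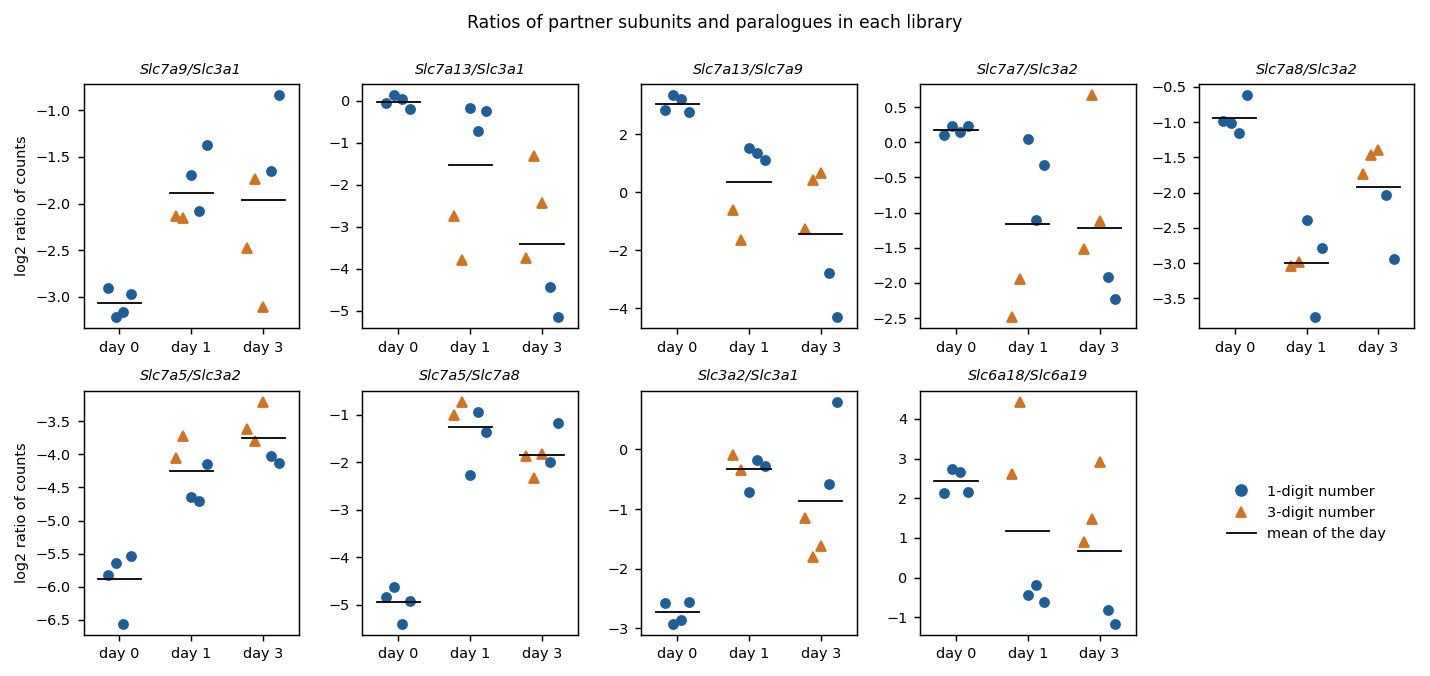
The 9 ratios between members (log2 of the ratio of counts) in each library by day, with circles for 1-digit and triangles for 3-digit libraries and a bar at each day's mean. Slc7a5/Slc7a8 and Slc3a2/Slc3a1 lie above their day 0 values in all injured libraries, and Slc7a13/Slc7a9 lies below.

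Other amino acid transporters and their partners were described from a list of 42 genes, of which 37 passed the filter. At day 1, 6 rose and 11 fell (median log2 fold change −0.47, beside 0.01 over all genes and shares of 23.3% higher and 18.7% lower), and at day 3, 7 rose and 11 fell (median 0.05, beside 0.05 over all genes and shares of 19.5% and 13.8%). The counts of genes that rose were thus no more than those shares would give. Between the injured days 4 rose and 3 fell, near the 8.52% and 7.39% of all tested genes. In the 1-digit libraries 10 rose and 17 fell at day 1 (28.9% and 29.6% of all tested genes) and 9 rose and 15 fell at day 3 (28.6% and 25.1%).

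The carriers that rose most at day 1 were Slc7a11, the cystine and glutamate exchanger, from a mean of 0.224 to 3.56 CPM (log2 fold change 3.93, SE 0.67, adjusted p = 0.000569, with 2 to 6 reads per library at day 0), Slc38a2, the neutral carrier SNAT2, from 86.3 to 321 CPM (1.90, adjusted p = 8.12e-05), Slc7a6, a further light chain of Slc3a2 (1.62, adjusted p = 0.00141), Slc7a1, the cationic carrier CAT1 (1.51, adjusted p = 0.000114), and Slc1a5, the neutral carrier ASCT2 (0.84, adjusted p = 0.00177). At day 3 Slc7a11 (4.09, adjusted p = 0.000635), Slc7a2, the cationic carrier CAT2 (1.90, adjusted p = 0.00512), Slc7a6 (1.05, adjusted p = 0.019), Slc7a1 (0.91, adjusted p = 0.00372) and Slc38a6 (0.88, adjusted p = 0.00267) rose most. Slc7a11, Slc7a6 and Slc7a1 are thus named at both days.

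Those that fell most at day 1 were Slc7a12, from 41.5 to 0.597 CPM (log2 fold change −6.16, SE 1.10, adjusted p = 0.000828, with 2 to 15 reads per library at day 1), the peptide carrier Slc15a2, from 127 to 16.8 CPM (−2.91, adjusted p = 8.97e-05), the betaine and GABA carrier Slc6a12 (−2.11, adjusted p = 0.0354), Slc6a13 (−1.40, adjusted p = 0.0049) and Slc36a1 (−1.39, adjusted p = 0.00356). Slc7a12 is also one of the 6 S3 markers above. At day 3 Slc7a12 (−3.55, adjusted p = 0.0111), Slc6a12 (−3.27, adjusted p = 0.00662), Slc15a2 (−1.90, adjusted p = 0.00176), Slc6a15 (−1.84, adjusted p = 0.000985) and Tmem27 (−1.78, adjusted p = 0.0119) fell most. Tmem27 encodes collectrin, the partner of Slc6a18 and Slc6a19, and had means of 2054, 1549 and 598 CPM at the 3 days. At day 1 it had 2115 CPM in the 1-digit and 700.0 in the 3-digit libraries (log2 difference −1.60, adjusted p = 0.0111) and at day 3 314 and 787 CPM (1.33, adjusted p = 0.0417). Its order between formats turned over between the days, as for Slc3a1 and Slc7a13 and unlike Slc6a18.

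**Figure D5:**
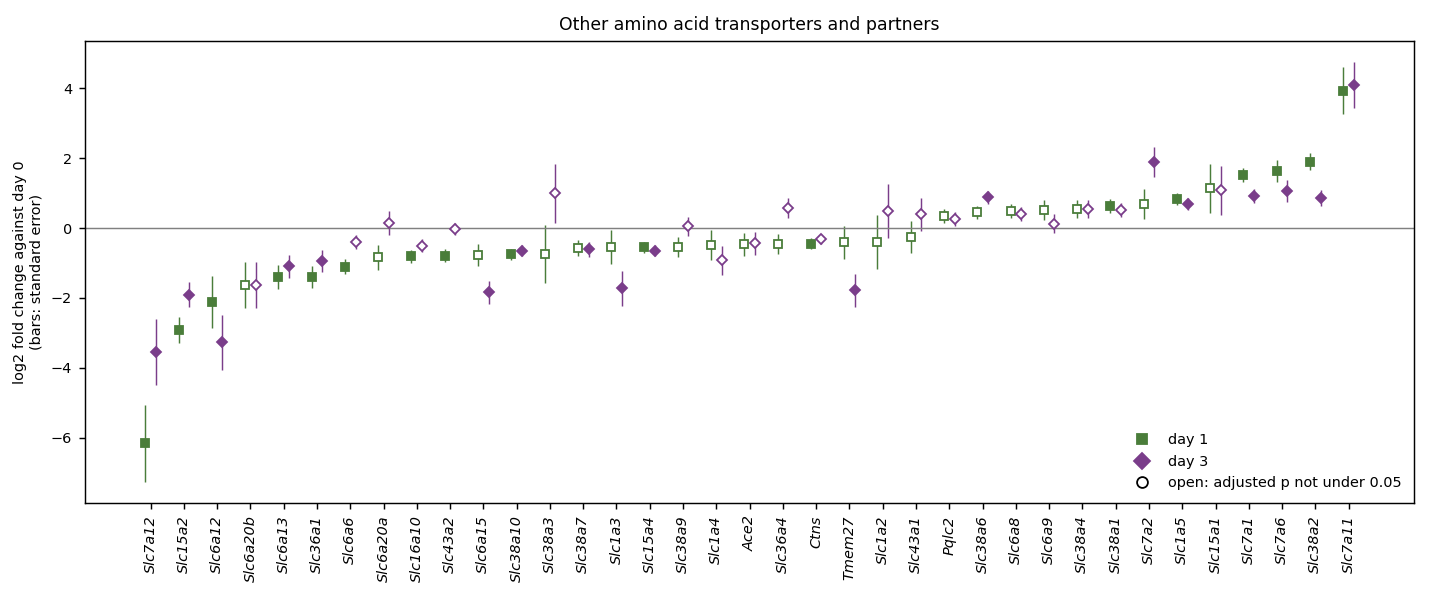
Log2 fold change against day 0 of the 37 tested genes among the other amino acid transporters and partners, at day 1 (squares) and day 3 (diamonds), sorted by the day 1 value and filled where the adjusted p was under 0.05. Slc7a11 is at the top (3.93 at day 1) and Slc7a12 at the bottom (−6.16).

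Likeness to a member was measured as the root mean square difference of log2 CPM over the 14 libraries, each gene centred on its day 0 mean. Closest to Slc7a5 were Dusp10 (0.31), Osmr (0.33), Mthfd1l (0.35), Tgfbi (0.36) and Smox (0.38). Osmr, a cytokine receptor chain, had means of 5.49, 38.2 and 25.3 CPM at the 3 days. Closest to Slc7a13 were Egf (0.77), Hsd3b4 (0.85), Akr1c14 (0.93), Gm15348 (0.97) and Gm853 (1.05), and Egf, the epidermal growth factor made in the distal tubule, had means of 1995, 306 and 85.5 CPM. Closest to Slc6a19 were Zscan25 (0.43), Cry2 (0.43), Slc30a2 (0.44), Dyrk2 (0.44) and Polg2 (0.44). Among the members themselves, Slc7a8 and Slc1a1 were the nearest pair (0.31), followed by Slc3a1 and Slc1a1 (0.54) and Slc7a7 and Slc7a9 (0.61), and Slc7a5 and Slc7a13 were the farthest apart (5.74).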

How the data were processed

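Total RNA of whole kidneys was extracted with TRIzol and made into libraries with an Illumina TruSeq kit. Per the submitters' processing notes the authors used Trimmomatic and STAR with mm10, and versions are not given in the sources used here. The authors deposited raw counts per gene for each library, with columns for unstranded reads and for each strand. The second-strand column was used, since it held 98.5 to 98.7% of the reads of both strand columns, and the summary lines of unmapped, multimapping and unassigned reads (29.0 to 38.3% of reads) were left out.

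Counts were scaled by TMM, filtered with filterByExpr by day and tested by edgeR's quasi-likelihood test (edgeR 4.0.16, limma 3.58.1, R 4.3.3) over all 14 libraries with day as the term, or with day and number format for the format comparisons, and a gene was called at a Benjamini-Hochberg adjusted p under 0.05. SEs were derived from the F statistic. CPM used TMM library sizes, with a prior count of 2 on the log2 scale. Levels per kb used the union of exons (GENCODE M21). Ratios were log2 of counts plus 0.5, compared by exact two-sided permutation tests. The spread between libraries is given as the error.

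All members are named, and from the other transporters the 5 largest changes in each direction per day among those called, and for Slc6a19, Slc7a13 and Slc7a5 the 5 nearest genes. The members and lists were chosen with earlier results of these data known. No replicate pair was the same library, since the chi-square per degree of freedom was 5.94 to 241 over 26 pairs. Alternatives were the unstranded counts, RLE size factors, total counts, no filter or at least 10 counts in every library, DESeq2 1.42.0, a replicate block, number format as a term, only the days compared, a pseudocount of 2 for ratios, only the 1-digit libraries for ratios, and leaving out each library. One gene of the lists is not reported by name here.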

Additional observations from a re-analysis of the deposited data

Results flagged for a closer look

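On the CPM scale, day 3 replicate 2 stood far from the other 4 day 3 libraries in 3 members. Slc7a7 was at 269.8 CPM there against 44.7 to 58.8 CPM in the others, Slc7a13 at 241 CPM against 4.04 to 70.9 CPM, and Slc7a9 at 179 CPM against 44.5 to 80.7 CPM. The gap to the nearest library exceeded Dixon's 95% critical value for 3 of 30 groups tested, where chance gives about 1 in 20, or 1.5. The 3 flags come from 1 library and are not independent, so this count cannot be set against chance. The flags were made on CPM, not on its log2. On the log2 scale Slc7a13 was at 7.91 in replicate 2 and at 2.06 to 6.15 in the others. The same library had the highest summed proximal tubule markers of day 3 (14948 CPM), whose part in these values was not tested.

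The difference between 3-digit and 1-digit libraries was not the same at day 3 as at day 1 for 4 of 10 members by an interaction term in edgeR. Over all tested genes this share was 17.6%. It changed by 7.40 on the log2 scale for Slc7a13 (adjusted p = 0.00127), by 3.77 for Slc7a7 (adjusted p = 0.00593), by 1.96 for Slc3a1 (adjusted p = 0.00348) and by 1.20 for Slc7a8 (adjusted p = 0.0495). The Slc7a8 call was lost with unstranded or total counts and on leaving out most single libraries. Proximal tubule markers changed the same way for 8 of 12 genes, and their part was not tested.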

How the results depend on the processing

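Of 68 results recomputed under 25 settings (1375 values), calls of Slc7a5, Slc3a1 and Slc1a1 against day 0 held in all settings. The replicate block left the members called at 5, 5 and 1 for the 3 day comparisons and turned the Slc7a7 day 1 value to −0.046, and same-numbered libraries shared only a number (correlations of deviations from −0.17 to 0.26). The causes of the changes below were not tested. Between days 3 and 1, 2 members were called with DESeq2 and 2 with the number format as a term, and 1 to 3 on leaving out a library. Between formats at day 1, total counts gave 4, and leaving out a library 1 to 7; at day 3 leaving out a library gave 0 to 4. The changed ratios numbered 0 with only 1-digit libraries, the only count that design allows (smallest p 0.0286 at day 1 and 0.0667 at day 3), which says nothing of the ratios, and 0 to 16 on leaving out a library. Leaving out a library also raises the smallest p of the comparisons with day 0 that use it. Directions turned for uncalled values between days 3 and 1: Slc1a1 with RLE (−0.0040) and DESeq2 (−0.0038), Slc6a19 with total counts (0.051) and the format term (0.27), Slc7a7/Slc3a2 with unstranded counts (0.014), and with 1-digit libraries Slc7a9/Slc3a1 (0.47) and Slc3a2/Slc3a1 (0.50). Slc7a9 at day 1 turned to 0.055 with the format term. On leaving out a library, values crossed 0 for Slc7a7 (−0.24 to 0.35) and Slc7a9 (−0.25 to 0.10) at day 1 and Slc3a2 at day 3 (−0.020 to 0.19), and between days 3 and 1 for Slc1a1 (−0.064 to 0.16), Slc6a19 (−0.43 to 0.13), Slc7a8 (−0.040 to 0.30), Slc6a18/Slc6a19 (−1.06 to 0.32), Slc7a7/Slc3a2 (−0.53 to 0.25) and Slc7a9/Slc3a1 (−0.35 to 0.21).

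Total counts in place of TMM moved the median of all genes, at day 3 against day 0 from 0.05 to 0.19 and between formats at day 1 from 0.03 to 0.24, and the share of called genes that were higher from 58.5% to 73.8% and from 53.1% to 73.1%. Between days 3 and 1 that share went from 53.6% to 77.9%, in the 3-digit libraries of day 3 against day 0 from 59.1% to 76.9%, and for the change of the format difference from 51.9% to 35.0%. With only the libraries of days 1 and 3, 831 genes were called between them in place of 2276. Leaving out a library took the count of 2276 to between 1269 and 3350. The counts that follow are from fits that kept at least 2 libraries in each group. Between formats, the genes called went from 5001 to between 3860 and 5602 at day 1 and from 2645 to between 1144 and 4771 at day 3. In the 3-digit libraries of day 1 against day 0 they went from 5954 to between 5043 and 6498. For the change of the format difference they went from 2510 to between 2013 and 3148. Low reads limit Slc7a5 at day 0 (from 26 reads) and Slc7a13 at day 3 (from 55 reads).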
